A study of Mus musculus with 6 samples.

Results

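The 9 genes described here encode regulators of Wnt signalling at the cell surface, one intracellular regulator and secreted Wnt-binding proteins: the ubiquitin ligases Rnf43 and Znrf3, the R-spondin receptors Lgr4 and Lgr5, the scaffold Axin2, and the secreted frizzled-related proteins Sfrp1, Sfrp2, Sfrp4 and Sfrp5. They are 9 of the 32759 genes measured and were picked by name with their values in the comparison below already known. Their levels and fold changes are therefore given as a description, with no p-value. RNA was sequenced from white adipose tissue of mice in 6 samples, all from animals fed a high-fat diet (HFD). In 3 samples (HFD) the diet was the only treatment, and in 3 samples (THBru) the mice were also given tetrahydroberberrubine, an alkaloid related to berberine, at 50 mg/kg/day. The question was what the compound changes in fat of animals on this diet. Fat depot, sex, age and strain are not given in the labels, nor whether each sample is its own animal, and p-values therefore measure only the spread between these samples.

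Wnt proteins are secreted ligands that bind frizzled receptors and their LRP co-receptors, which leads to accumulation of β-catenin and transcription through TCF/LEF factors. RNF43 and ZNRF3 remove frizzled receptors from the cell surface, and R-spondins, bound to LGR receptors, relieve this removal. SFRPs bind Wnt proteins outside the cell, and in fat the β-catenin branch is known to restrain the formation of adipocytes.

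In the THBru libraries Rnf43 was detected at 25.8 to 75.8 CPM (counts per 1000000 total counts) where the HFD libraries held 0.182 to 0.365. Sfrp5, the SFRP with the highest FPKM in HFD (fragments per kilobase of gene per 1000000 fragments), was at 276 to 397 CPM in HFD, against 11.7 to 109 CPM in THBru. Znrf3 and Axin2 were also higher in each THBru library than in every HFD library, by 2.71-fold and 2.24-fold between group means. Sfrp1, Sfrp2, Sfrp4 and Lgr4 overlapped between the groups, and Lgr5 was rare in both.

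Libraries held 67195085 to 76995679 counts in total. A count of 0 allows up to 3 counts, or 0.0390 to 0.0446 CPM, by counting error alone. The 3 THBru libraries stood apart from the HFD libraries and from each other through transcripts of other organs. A list of 8 seminal vesicle genes summed to 424127 CPM in THBru 1 against 529 to 631 CPM in HFD, led by Svs2 and Svs5. A list of 10 kidney genes, led by Lrp2 and Slc34a1, summed to 1234 CPM in THBru 2 against 3.47 to 47.8 CPM in HFD, where 3 to 5 of its genes were at 0. A list of 12 epididymis genes, led by Adam7 and Lcn5, summed to 29539 CPM in THBru 3 against 34.4 to 39.3 CPM in HFD. The 15 mature adipocyte genes, led by Fabp4 and Lpl, were detected in every library, at 25925 to 39188 CPM in HFD, against 5392, 29087 and 3504 CPM in THBru 1 to 3. In bulk tissue, fewer cells of a type, less RNA per cell and a larger share of RNA from other tissue cannot be told apart.

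The start regions of 5 of the 9 genes could be matched to RefSeq promoters (GRCm38.p6, 250 bases before to 50 bases after the start), and Znrf3, Lgr5, Sfrp1 and Sfrp4 had no entry. The 4 windows shown belong to 3 of the 4 genes whose CPM did not overlap between the groups. Capitals mark CpG dinucleotides, and each sequence is written 5′ to 3′ on the strand of its gene.
Axin2, chr11:108920099-108920398, plus strand: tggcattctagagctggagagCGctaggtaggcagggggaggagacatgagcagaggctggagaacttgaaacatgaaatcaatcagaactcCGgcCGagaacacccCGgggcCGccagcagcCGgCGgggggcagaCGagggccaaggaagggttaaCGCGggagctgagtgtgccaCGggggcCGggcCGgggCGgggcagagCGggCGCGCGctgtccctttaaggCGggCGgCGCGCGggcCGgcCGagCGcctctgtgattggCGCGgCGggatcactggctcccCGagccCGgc
Rnf43 first start, chr11:87662837-87663136, plus strand: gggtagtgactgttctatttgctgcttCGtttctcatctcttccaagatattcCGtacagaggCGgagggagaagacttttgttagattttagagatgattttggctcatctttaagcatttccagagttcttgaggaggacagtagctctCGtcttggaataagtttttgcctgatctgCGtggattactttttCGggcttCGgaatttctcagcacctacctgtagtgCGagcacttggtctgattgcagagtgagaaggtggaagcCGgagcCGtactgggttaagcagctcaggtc
Rnf43 second start, chr11:87699647-87699946, plus strand: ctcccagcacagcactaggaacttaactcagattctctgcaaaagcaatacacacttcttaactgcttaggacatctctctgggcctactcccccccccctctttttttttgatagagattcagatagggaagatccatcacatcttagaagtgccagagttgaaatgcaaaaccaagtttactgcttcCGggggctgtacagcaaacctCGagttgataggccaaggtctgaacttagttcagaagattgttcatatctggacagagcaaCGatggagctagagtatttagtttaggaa
Sfrp5, chr19:42202203-42202502, minus strand: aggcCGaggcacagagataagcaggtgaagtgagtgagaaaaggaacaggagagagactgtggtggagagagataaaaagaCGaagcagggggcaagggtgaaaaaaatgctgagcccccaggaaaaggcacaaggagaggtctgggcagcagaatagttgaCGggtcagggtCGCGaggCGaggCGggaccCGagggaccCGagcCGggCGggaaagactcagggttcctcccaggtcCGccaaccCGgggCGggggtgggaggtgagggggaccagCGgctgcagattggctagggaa
The Axin2 window held 31 CpG dinucleotides at 70.0% GC, as many CpG as the 90th percentile of all 32851 promoters, whose median was 7 CpG and 52.7% GC. The Rnf43 windows held 10 and 3 CpG, at 46.7% and 44.3% GC, and the Sfrp5 window held 15 at 61.3% GC. Windows of Lgr4 and Sfrp2, not printed, held 18 and 22 CpG. Each window was searched on both strands for 4 TCF/LEF core motifs. These were CTTTGAT (found in 3.73% of all promoters of this length), CTTTGAA (found in 5.14%), CTTTGTT (found in 5.85%) and CTTTGTA (found in 3.63%), with at least 1 of them in 16.9%. None of the 6 windows of the 5 genes held one. The C/EBP motif TTNNGCAA, present in 10.8% of all promoters, lay on the opposite strand 47 bases before the start of Lgr4 and 45 bases before that of Sfrp2, and TATAAA (13.6% of promoters) was in none of the 6.

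The 9 genes lie on 7 chromosomes of GRCm38, and all have the coordinates of GENCODE M21. Rnf43 (ENSMUSG00000034177, chromosome 11, 87662722 to 87735539, plus strand), Znrf3 (ENSMUSG00000041961, 5276324 to 5444847, minus strand) and Axin2 (ENSMUSG00000000142, 108920349 to 108950783, plus strand) share chromosome 11. Lgr4 (ENSMUSG00000050199) is on chromosome 2 from 109917647 to 110014257, and Lgr5 (ENSMUSG00000020140) on chromosome 10 from 115450311 to 115587780. Sfrp1 (ENSMUSG00000031548) is on chromosome 8 from 23411502 to 23449632, and Sfrp2 (ENSMUSG00000027996) on chromosome 3 from 83766321 to 83774316. Sfrp4 (ENSMUSG00000021319) is on chromosome 13 from 19623104 to 19632994, and Sfrp5 (ENSMUSG00000018822) on chromosome 19 from 42197971 to 42202252. Counts cover whole genes, and without a stated strand setting, reads of Axin2 and Sfrp2 cannot be told apart from those of their antisense partners. The partner of Axin2, Gm11670, had 9 to 71 counts and that of Sfrp2, Gm26771, 0 to 3. Within an intron of Rnf43, on its strand, lies 1110028F11Rik, with 0, 18 and 13 counts in HFD and 6, 7 and 14 in THBru, close to the HFD counts of Rnf43 itself, and how reads of this pair were divided is not stated. The annotation also has A930009A15Rik opposite Lgr5, for which no counts were used here.

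Rnf43, the ligase that marks frizzled receptors for removal and is itself a Wnt target gene, had 14, 24 and 27 counts in HFD 1 to 3, against 2360, 1765 and 5095 in THBru 1 to 3. In CPM these were 0.182, 0.346 and 0.365 against 32.7, 25.8 and 75.8, and the lowest THBru library lay far above the highest HFD library. The means were 0.298 ± 0.101 and 44.8 ± 27.1 CPM (SD, n = 3 each), a ratio of 150.5. The fitted log2 fold change was 7.38 (SE 0.65), at 7.73 (SE 0.43) without THBru 2 and 6.28 (SE 0.48) for THBru 2 alone against HFD. All 3 THBru libraries were high, and each of them carried another organ's transcripts.

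Znrf3, the closest relative of Rnf43 with the same role, stood at 8.43, 10.4 and 8.99 CPM in HFD, against 11.2, 22.6 and 41.5 CPM in THBru. The groups did not overlap, but in CPM THBru 1 lay just above the highest HFD library. TMM-scaled CPM is CPM divided by a factor for the composition of the library. On that scale THBru 1 was at 17.8, against at most 10.2 in HFD and 18.9 in THBru 2. The means were 9.28 ± 1.03 and 25.1 ± 15.3 CPM (SD, n = 3 each), and the fitted log2 fold change was 1.49 (SE 0.36), at 1.65 without THBru 2 and 1.13 for THBru 2 alone. In FPKM, which allows genes to be compared per length, Rnf43 was at 0.0244 to 0.0468 of the Znrf3 level in HFD and at 1.38 to 3.50 times the Znrf3 level in THBru. The order of the pair was thus the reverse in every THBru library of that in every HFD library.

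Axin2, a scaffold of the complex that degrades β-catenin and a widely used Wnt target gene, was at 18.4, 25.5 and 23.0 CPM in HFD, against 29.3, 42.2 and 78.5 CPM in THBru. All THBru libraries were above all HFD libraries, with THBru 3 highest, as for Rnf43 and Znrf3. In TMM-scaled CPM, THBru 1 was at 46.4 and THBru 2 at 35.4, the reverse of their order in CPM. The means were 22.3 ± 3.60 and 50.0 ± 25.5 CPM (SD, n = 3 each), and the fitted log2 fold change was 1.26 (SE 0.31), at 1.47 without THBru 2 and 0.76 for THBru 2 alone. The FPKM ratio of Znrf3 to Axin2 stayed in a narrow range, 0.273 to 0.319 in HFD and 0.268 to 0.373 in THBru, and overlapped between the groups. The ratio of Rnf43 to Axin2 was 0.00777 to 0.0128 in HFD and 0.513 to 0.937 in THBru.

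Lgr4, an R-spondin receptor with broad expression, was at 58.4, 120.2 and 72.9 CPM in HFD, against 37.9, 84.4 and 62.2 CPM in THBru. The groups overlapped, and HFD 2 was highest. The means were 83.8 ± 32.3 and 61.5 ± 23.3 CPM (SD, n = 3 each), and the fitted log2 fold change of -0.36 (SE 0.33) was 0.04 without HFD 2. Lgr5, its relative known as a stem cell marker of gut and hair follicle, had 16, 16 and 4 counts in HFD, against 184, 0 and 28 counts in THBru. It was thus highest in THBru 1 and without a count in THBru 2, where up to 0.0439 CPM is allowed by the depth. Lgr5 did not reach the mean FPKM of 0.5 required for a fit. Per length, Lgr4 was 494 to 2376 times as abundant as Lgr5 in HFD and 26.3 and 264 times in THBru 1 and THBru 3.

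**Figure D1:**
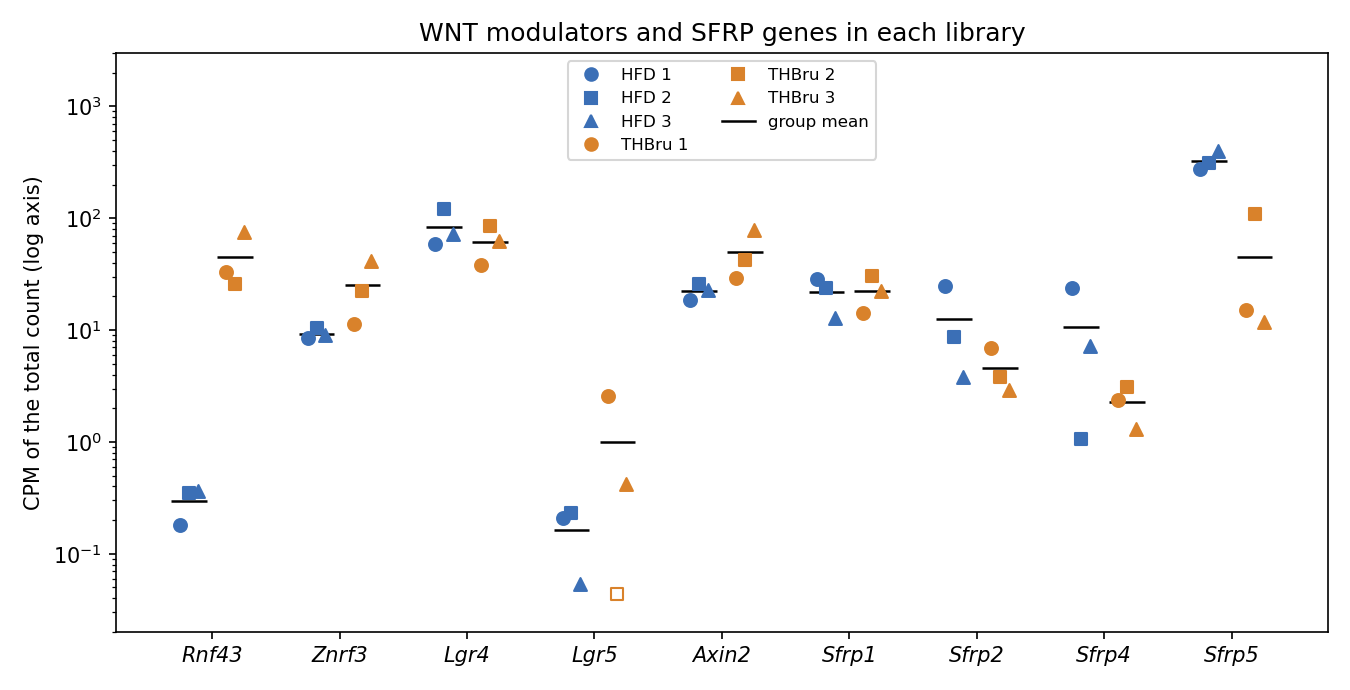
CPM of the 9 genes in each library on a log axis, with HFD and THBru libraries side by side; points are libraries, bars are group means, and the open square is Lgr5 in THBru 2, which had 0 counts and is drawn at the 3-count limit of 0.0439 CPM. Rnf43, Znrf3 and Axin2 lie higher and Sfrp5 lower in every THBru library than in every HFD library.

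Sfrp5, a Wnt antagonist secreted by adipocytes, was at 276, 311 and 397 CPM in HFD, against 15.2, 109 and 11.7 CPM in THBru. All THBru libraries were below all HFD libraries, and THBru 2 was the highest of the 3. The means were 328 ± 61.9 and 45.4 ± 55.5 CPM (SD, n = 3 each), 7.22-fold higher in HFD, and the fitted log2 fold change was -2.88 (SE 0.84). That value was -4.17 (SE 0.50) without THBru 2 and -1.73 (SE 0.33) for THBru 2 alone against HFD. The mature adipocyte list stood at 0.157, 0.849 and 0.102 times its HFD mean across THBru 1 to 3, with none of its 15 genes at 0 in any library. Its sum overlapped between the groups, since THBru 2 lay above HFD 1. Of the 15 genes, 5 were lower in THBru without overlap, beside 12.6% of all tested genes. Per 1000 CPM of that list, Sfrp5 was at 10.7, 8.24 and 10.1 CPM in HFD, against 2.81, 3.76 and 3.33 CPM in THBru. The groups did not overlap on that ratio, whose means were 2.93-fold apart, against 7.22-fold for Sfrp5 itself. Per 100 counts of Adipoq, the adipocyte hormone adiponectin, Sfrp5 had 18.8, 16.3 and 14.8 counts in HFD, against 4.41, 7.16 and 7.04 in THBru.

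Sfrp1, an SFRP of stromal cells, was at 28.7, 24.0 and 12.9 CPM in HFD, against 14.2, 30.4 and 22.3 CPM in THBru. The ranges of the groups overlapped, and the means were 21.8 ± 8.09 and 22.3 ± 8.14 CPM (SD, n = 3 each), with a fitted log2 fold change of 0.13 (SE 0.33) that was -0.14 without HFD 3. Sfrp2, known from fibroblasts and adipose progenitors, was at 25.0, 8.65 and 3.82 CPM in HFD, against 6.93, 3.80 and 2.89 CPM in THBru. HFD 1 was the highest, and the groups overlapped. The fitted log2 fold change of -1.07 (SE 0.88) was -0.11 (SE 0.84) without HFD 1 and -2.04 (SE 0.88) without THBru 1. Sfrp4, which has been described as an adipokine, was at 24.0, 1.05 and 7.16 CPM in HFD, against 2.37, 3.07 and 1.31 CPM in THBru. HFD 1 was again the highest and HFD 2 the lowest of all 6 libraries, and the fitted log2 fold change of -1.99 (SE 1.09) was -0.62 without HFD 1.

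The list of 10 fibroblast and adipose progenitor genes, led by Col3a1 and Dcn, summed to 5857, 3091 and 2111 CPM in HFD, against 918, 2273 and 1073 CPM in THBru, with none at 0. Like Sfrp2, it was highest in HFD 1. Its genes did not move as 1: of the 10, 1 was higher and 3 lower in THBru without overlap, beside 10.4% and 12.6% of all tested genes. Per 1000 CPM of this list, Sfrp1 was at 4.89, 7.76 and 6.11 CPM in HFD, against 15.4, 13.4 and 20.8 CPM in THBru, with no overlap. The CPM of Sfrp1 itself overlapped, with means of 21.8 in HFD and 22.3 in THBru. The same ratio overlapped for Sfrp2 (1.81 to 4.26 against 1.67 to 7.55 CPM) and for Sfrp4 (0.341 to 4.09 against 1.22 to 2.58 CPM).

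Among the SFRP genes together with Frzb, which encodes the remaining family member, summed FPKM was 165, 167 and 209 in HFD and 15.8, 65.4 and 12.5 in THBru. Sfrp5 made up 85.7%, 94.3% and 97.0% of that sum in HFD and 48.7%, 85.5% and 47.5% in THBru. Its share in THBru 2 lay just under that in HFD 1. Sfrp1 made up 3.86%, 3.16% and 1.37% in HFD and 19.8%, 10.3% and 39.4% in THBru, while its own FPKM overlapped between the groups. In THBru 1 Sfrp2 held 19.6% and Frzb 8.52% of the sum, against at most 6.83% and 0.231% in HFD.

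**Figure D2:**
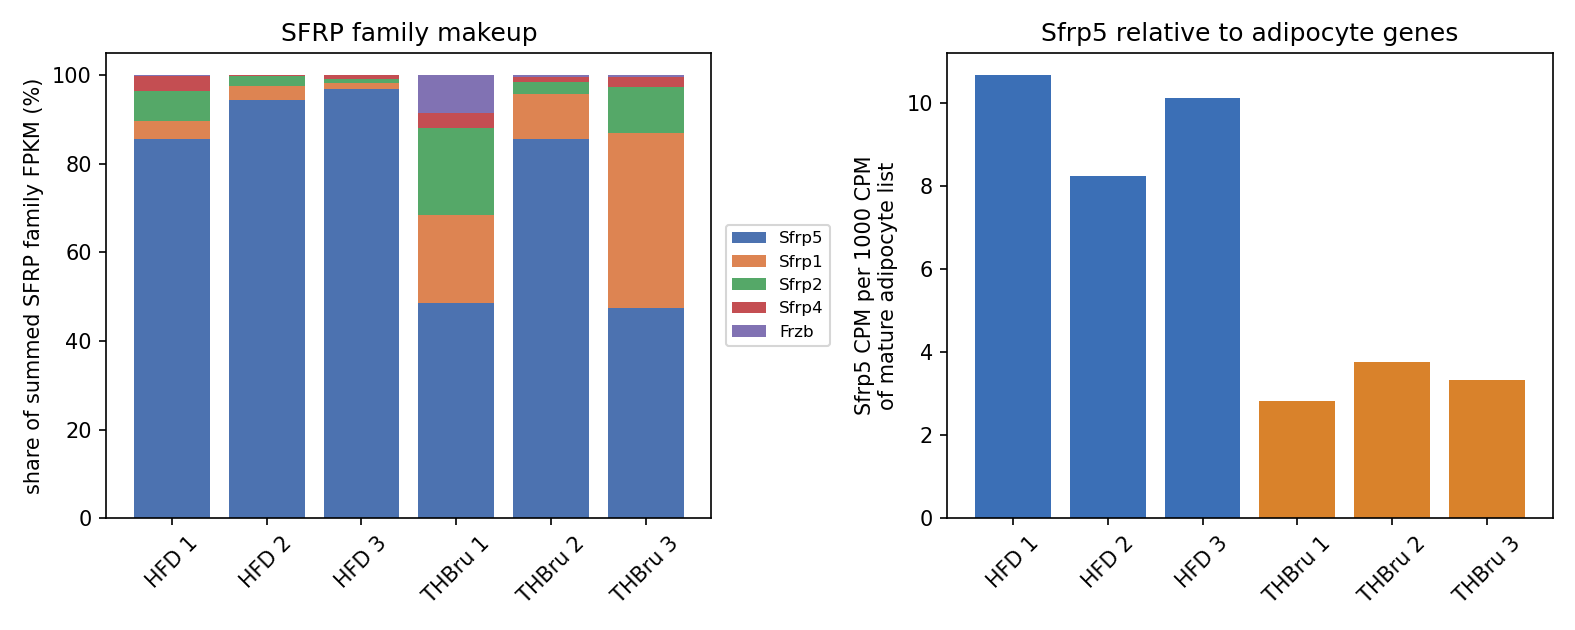
Left, share of each SFRP gene and Frzb in their summed FPKM (%), 1 stacked bar per library. Right, Sfrp5 CPM per 1000 CPM of the 15 mature adipocyte genes, 1 bar per library, where the HFD libraries sit between 8.24 and 10.7 and the THBru libraries between 2.81 and 3.76.

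By FPKM the 9 genes in HFD ran from Sfrp5 at 167 ± 31.7 and Lgr4 at 13.8 ± 5.25 through Sfrp2 (5.62 ± 5.01), Sfrp1 (4.84 ± 1.79), Axin2 (3.92 ± 0.618), Sfrp4 (2.49 ± 2.76) and Znrf3 (1.14 ± 0.120) to Rnf43 (0.0419 ± 0.0145) and Lgr5 (0.0151 ± 0.00868; SD, n = 3). Neighbours in that order overlapped in the range of their 3 libraries from Lgr4 to Znrf3. Sfrp5, Rnf43 and Lgr5 did not overlap with their neighbours. In THBru, the FPKM order was Sfrp5 (23.2 ± 28.4), Lgr4 (10.1 ± 3.86), Axin2 (8.76 ± 4.43), Rnf43 (6.58 ± 3.96), Sfrp1 (4.93 ± 1.82), Znrf3 (3.07 ± 1.86), Sfrp2 (2.03 ± 0.950), Sfrp4 (0.519 ± 0.207) and Lgr5 (0.0917 ± 0.127; SD, n = 3). Neighbours from Sfrp5 to Sfrp2 overlapped there, and Sfrp4 and Lgr5 did not overlap with theirs. Among the HFD libraries the highest CPM was 22.7 times the lowest for Sfrp4, 6.53 times for Sfrp2 and 1.24 times for Znrf3, and among the THBru libraries it was 9.37 times for Sfrp5 and 3.69 times for Znrf3.

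CPM did not overlap between the groups for 4 of the 9 genes, Rnf43, Znrf3 and Axin2 higher and Sfrp5 lower in THBru. Among the 16140 genes tested, 22.9% did not overlap (10.4% higher and 12.6% lower). The same 4 did not overlap in TMM-scaled CPM, beside 31.8% of all genes. By edgeR's quasi-likelihood test with Benjamini-Hochberg adjustment over those 16140 genes, 1 of the 8 tested members (Rnf43) was past the adjusted threshold of 0.05 as higher and 0 as lower, beside 0.118% of all genes higher and 0 genes lower. At an unadjusted p under 0.05 these counts were 3 higher and 1 lower of the 8, beside 13.9% and 8.93% of all genes. DESeq2 called 3 higher and 1 lower, beside 10.3% and 6.83% (17.2% in either direction). Without THBru 2, edgeR called 2 higher and 1 lower, beside 5.06% and 4.56% (9.62% in either direction). With HFD 1, HFD 2 or HFD 3 left out, edgeR called 0 genes, so Rnf43 was not called either. The genes were picked from this comparison, and Rnf43 reached the mean FPKM needed for a test only through THBru. Nothing is therefore read from these counts.

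The general epithelium list of 10 genes, led by Krt18 and Krt8, was higher in the same libraries as Rnf43. It summed to 24.4, 116 and 7.77 CPM in HFD, against 1138, 429 and 1798 CPM in THBru, with no gene at 0 in any library. Of the 10 genes, 8 were higher in THBru without overlap, beside 10.4% of all tested genes. Per 100 CPM of this list, Rnf43 was at 0.745, 0.299 and 4.70 CPM in HFD, against 2.88, 6.03 and 4.22 CPM in THBru. The groups overlapped on that ratio through HFD 3 only, where Rnf43 had 27 counts and the list summed to 7.77 CPM. HFD 1 and HFD 2 lay below every THBru library. The ciliated epithelium list of 8 genes, led by Foxj1 and Dnah11, summed to 4.85 to 7.81 CPM in HFD, against 6.70, 382 and 112 CPM in THBru 1 to 3. Macrophage genes, led by Lyz2 and Mpeg1, summed to 3155 to 7009 CPM in HFD, against 365 to 1693 CPM in THBru. Of these, 10 of 10 were lower without overlap, beside 12.6% of all tested genes. Endothelial genes (Pecam1 and Cdh5 leading) spanned 1488 to 2469 CPM in HFD, against 266 to 2918 CPM in THBru, and mesothelial genes (Upk1b and Upk3b leading) 22.1 to 441 and 53.8 to 136 CPM. The 2 leading mesothelial genes differed, so their list sum does not describe both. Upk1b was at 7.60, 55.2 and 2.03 CPM in HFD, against 104, 4.71 and 74.4 CPM in THBru. Upk3b was at 18.5, 129 and 5.70 CPM in HFD, against 1.41, 15.6 and 25.0 CPM in THBru. The part of these other cell types in the levels of the 9 genes was not tested.

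**Figure D3:**
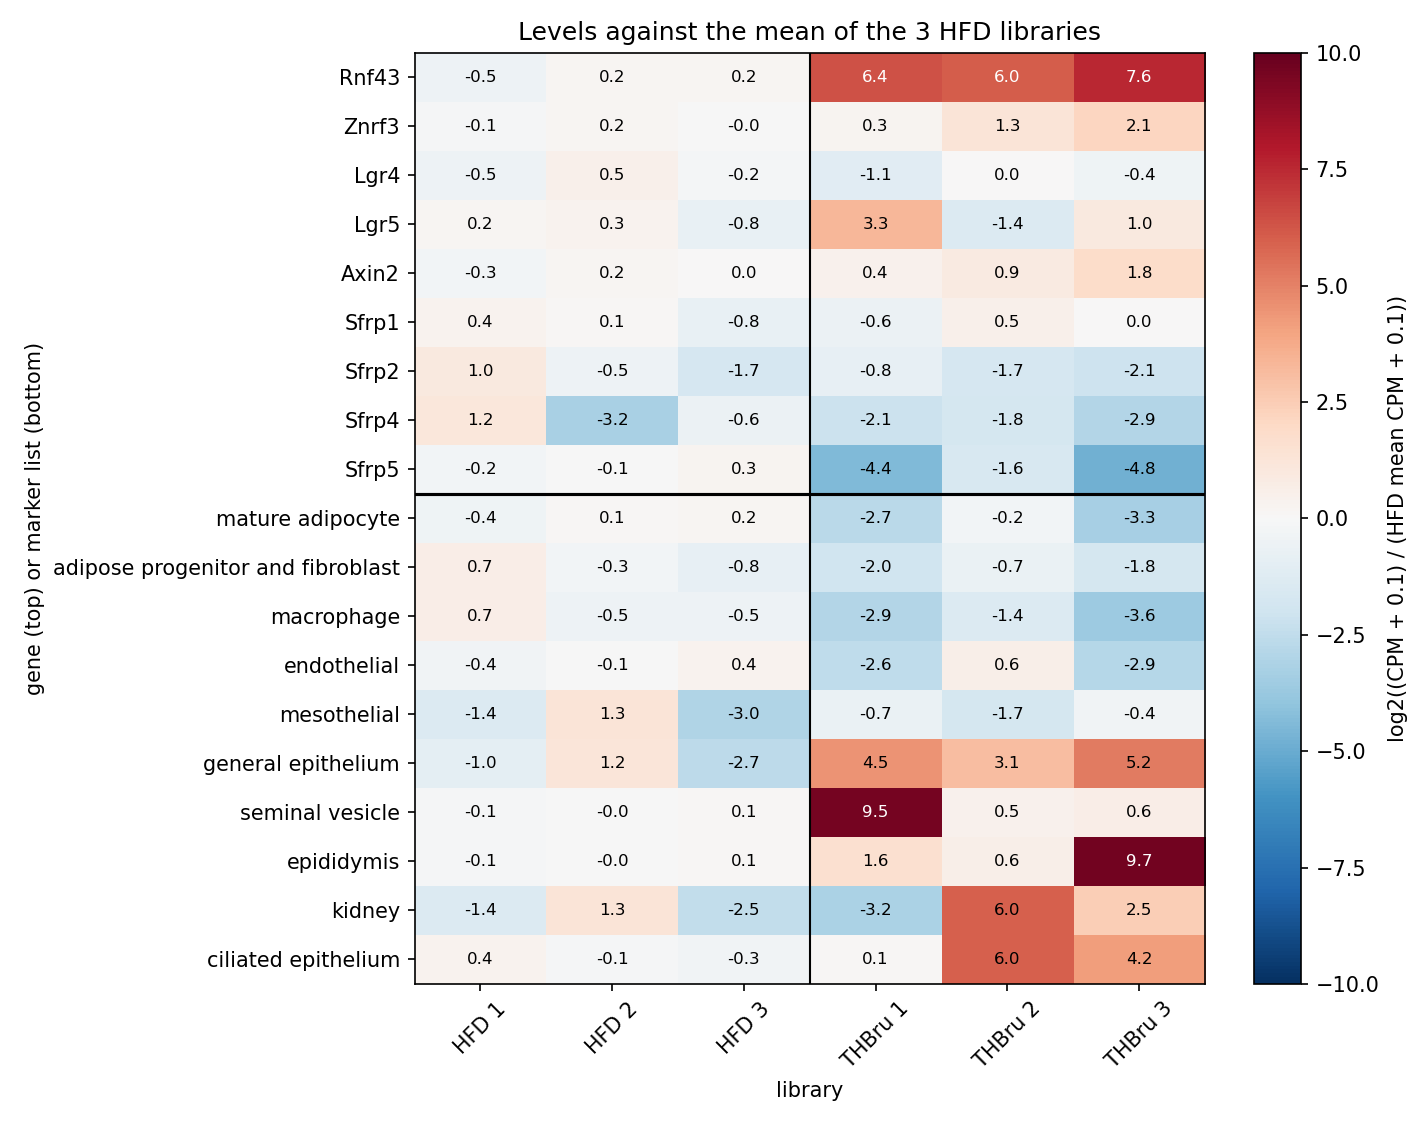
Level of each of the 9 genes (top) and summed level of each marker list (bottom) in every library, as log2 of (CPM + 0.1) over (HFD mean CPM + 0.1), with red above and blue below the HFD mean. Rnf43 and the general epithelium list are above the HFD mean in all 3 THBru libraries, while the seminal vesicle list stands out in THBru 1, kidney in THBru 2 and epididymis in THBru 3.

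Scaling to mature adipocyte genes raised the fold change of every tested member, but not by the same amount. When libraries were scaled to equal summed counts of the mature adipocyte genes, the median log2 fold change of all tested genes moved from 0.08 to 2.37, and with total counts in place of TMM factors it was -0.05. Under the adipocyte scaling, Rnf43 had a log2 fold change of 10.12, Znrf3 of 4.15, Axin2 of 3.89 and Sfrp5 of -1.55, and the values of Lgr4 and Sfrp2 became positive, 1.92 and 0.80. Relative to the median of all genes, Sfrp5 was at -2.95 on TMM factors and -3.92 on the adipocyte scaling, Rnf43 at 7.30 and 7.74, and Lgr4 at -0.44 and -0.45.

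The other Wnt pathway genes were read from 9 lists of 87 genes, of which 83 were in the table and 60 were tested. None of the 60 passed edgeR's adjusted threshold, higher or lower. At an unadjusted p under 0.05, 11 were higher and 3 lower (18.3% and 5.00% of the 60, beside 13.9% and 8.93% of all genes), and DESeq2 called 9 higher and 3 lower (15.0% and 5.00%, beside 10.3% and 6.83%). The median log2 fold change of the 60 was 0.23, beside 0.08 over all tested genes, with 41 positive and 19 negative. Without THBru 2, edgeR called 5 higher and 0 lower, beside 5.06% and 4.56% of all genes: Rspo3, Fzd3, Notum, Tcf7 and Tnfrsf19. Of these 5, Rspo3, Fzd3, Notum and Tnfrsf19 reached the mean FPKM needed for a test only through THBru. With any other single library left out, edgeR called 0 of the pathway genes higher and 0 lower. The edgeR adjusted p of each gene named below was 0.120 or more with all 6 libraries.

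Of 16 Wnt ligands in the table, 8 were tested, with a median log2 fold change of 0.09. Wnt7b, a ligand typical of epithelia, was at 0, 0.318 and 0.0676 CPM in HFD, against 10.9, 0.907 and 20.2 CPM in THBru (log2 fold change 6.59, edgeR adjusted p = 0.175). Its groups did not overlap, and THBru 2 was the lowest of its group. Wnt4 was at 0.216 to 3.03 CPM in HFD, against 4.07 to 11.6 CPM in THBru, also without overlap. Wnt5a, a ligand that acts mainly without β-catenin and the most abundant tested ligand by FPKM, was at 21.3 to 26.0 and 22.5 to 25.5 CPM, so its groups overlapped. Of the Wnt secretion factors, Porcn, which acylates Wnt proteins, was at 13.9 to 52.4 CPM in HFD, against 6.63 to 16.6 CPM in THBru, and their carrier Wls at 87.3 to 113 and 95.9 to 154 CPM.

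The R-spondins are the ligands through which Lgr4 and Lgr5 act on Rnf43 and Znrf3. Rspo3 was at 1.44, 0.779 and 1.45 CPM in HFD, against 9.53, 2.03 and 6.12 CPM in THBru (log2 fold change 2.69, SE 0.85, edgeR adjusted p = 0.183). Without THBru 2 its edgeR adjusted p was 0.0423. Rspo3 reached the mean FPKM for a test only through THBru, so its p-values are not read as support. All 3 THBru libraries lay above the HFD libraries. Rspo1 was at 2.01 to 16.0 CPM in HFD, against 0.902 to 25.6 CPM in THBru, so its groups overlapped, and its log2 fold change of 0.52 was -0.58 without THBru 2. Rspo2, too low for a test, had 0 counts in the HFD libraries and 259, 0 and 24 counts in THBru 1 to 3, with THBru 1 highest and THBru 2 at 0, as for Lgr5.

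Frizzled receptors, the targets of RNF43 and ZNRF3, had 8 tested genes of 10 with a median log2 fold change of -0.17. Fzd4, the most abundant by FPKM, was at 751, 936 and 929 CPM in HFD, against 145, 703 and 79.7 CPM in THBru, without overlap (log2 fold change -1.47, SE 0.75, edgeR adjusted p = 0.280, and -2.45, SE 0.60, without THBru 2). Fzd3 was at 3.29, 5.40 and 4.08 CPM in HFD, against 19.3, 11.6 and 35.9 CPM in THBru (log2 fold change 2.58, SE 0.53, edgeR adjusted p = 0.139, and 0.0194 without THBru 2). The groups did not overlap for Fzd3, which reached the mean FPKM for a test only through THBru, so its p-values are not read as support. Fzd6 overlapped in CPM, at 17.0 to 24.3 and 20.3 to 105, but not in TMM-scaled CPM, at 15.7 to 22.6 and 32.1 to 94.0 (log2 fold change 1.72, SE 0.43, edgeR adjusted p = 0.162). Fzd1 was at 52.8 to 59.6 CPM in HFD, against 21.7 to 41.5 CPM in THBru, without overlap (log2 fold change -0.83, SE 0.24, edgeR adjusted p = 0.175). DESeq2 called Fzd3 and Fzd6 higher and Fzd1 lower. Among 5 tested co-receptors, the median was 0.00. Lrp6, the co-receptor of the β-catenin branch, was at 167 to 232 CPM in HFD, against 72.0 to 164 CPM in THBru, and Ptk7, a co-receptor of planar polarity, at 5.59 to 9.66 and 8.50 to 62.1 CPM. Ptk7 overlapped in CPM but not in TMM-scaled CPM, at 5.18 to 9.46 and 13.5 to 55.7. Ryk, a Wnt-binding receptor, had a log2 fold change of 0.00 (SE 0.17).

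Of the other antagonists, 6 of 13 were tested, with a median log2 fold change of 0.33. Notum, a secreted enzyme that removes the lipid from Wnt proteins and a Wnt target gene, had 0 counts in each HFD library and 126, 630 and 125 counts in THBru 1 to 3. Its mean in THBru was at least 314-fold higher than the limit of 3 counts over the HFD group (edgeR adjusted p = 0.120, and 0.0352 without THBru 2). Notum reached the mean FPKM for a test only through THBru, so its p-values are not read as support. Unlike Rnf43, Znrf3 and Axin2, it was highest in THBru 2. Wif1, a secreted inhibitor of Wnt proteins, was at 0.216 to 0.432 CPM in HFD, against 18.8, 1.27 and 0.0595 CPM in THBru, high in THBru 1 and lowest of all in THBru 3. Apcdd1, a membrane inhibitor, overlapped, at 151 to 294 CPM in HFD, against 39.3 to 262 CPM in THBru, and its log2 fold change of -0.76 was -1.72 without THBru 2.

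The 12 cytoplasmic genes were all tested, and 11 had a positive log2 fold change, beside 8786 of all 16140 tested genes. Their median was 0.29, beside 0.08 over all genes, and edgeR called none of the 12 after adjustment, 1 higher and 0 lower at an unadjusted p under 0.05, and DESeq2 none. Ctnnb1, which encodes β-catenin, was at 326 to 395 CPM in HFD, against 225 to 537 CPM in THBru (log2 fold change 0.30, SE 0.24, edgeR adjusted p = 0.465). The transducer Dvl1 was at 67.8 to 76.4 and 70.4 to 102 CPM, and Tnks, which encodes an enzyme that marks AXIN proteins for degradation, at 71.9 to 82.9 and 68.9 to 123 CPM. These 3 genes overlapped between the groups in CPM. In TMM-scaled CPM, Ctnnb1 still overlapped, whereas Dvl1 (62.7 to 74.9 in HFD, 80.3 to 111 in THBru) and Tnks (66.6 to 78.1 and 85.9 to 110.4) did not.

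In the nuclear complex, 8 genes were tested with a median log2 fold change of 0.15. Tcf7, a DNA-binding partner of β-catenin, was at 1.73, 2.22 and 1.51 CPM in HFD, against 19.3, 16.3 and 174 CPM in THBru (log2 fold change 5.27, SE 1.06, edgeR adjusted p = 0.136). The groups did not overlap, and THBru 3 was the highest. Its edgeR adjusted p was 0.0295 without THBru 2. For THBru 2 alone against HFD its log2 fold change was 3.00, with an edgeR adjusted p of 0.0413 that rests on the spread of the 3 HFD libraries only and assumes that THBru 2 varies as they do. No other listed pathway gene passed in that comparison, where 2.18% of all genes were higher and 0.0373% lower by the same rule. Lef1, its relative, was at 0.332 to 0.811 CPM in HFD, against 1.44, 2.93 and 51.7 CPM in THBru without overlap, and the coactivator Bcl9l at 114 to 152 and 83.5 to 208 CPM.

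Among 9 tested genes of 12 other Wnt targets, the median log2 fold change was 0.89. Tnfrsf19, also called Troy, was at 0.338, 0.375 and 0.162 CPM in HFD, against 60.1, 1.36 and 28.4 CPM in THBru (log2 fold change 7.19, SE 1.69, edgeR adjusted p = 0.159, and 0.0204 without THBru 2). All THBru libraries were above the HFD libraries, THBru 2 by the least. Tnfrsf19 reached the mean FPKM for a test only through THBru, so its p-values are not read as support. Ccnd1, which encodes cyclin D1, was at 18.3 to 77.7 CPM in HFD, against 59.2 to 129 CPM in THBru, with overlap. Cd44, a target that leukocytes also express, was at 223, 76.7 and 101 CPM in HFD, against 13.9, 31.3 and 11.1 CPM in THBru (log2 fold change -2.69, SE 0.56, edgeR adjusted p = 0.141). For Cd44 the groups did not overlap, and the macrophage list, given above, was also lower in every THBru library. Its part in the level of Cd44 was not tested. Of the 9 tested targets, 7 had a positive and 2 a negative log2 fold change, beside 8786 positive and 7354 negative of all 16140 tested genes.

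**Figure D4:**
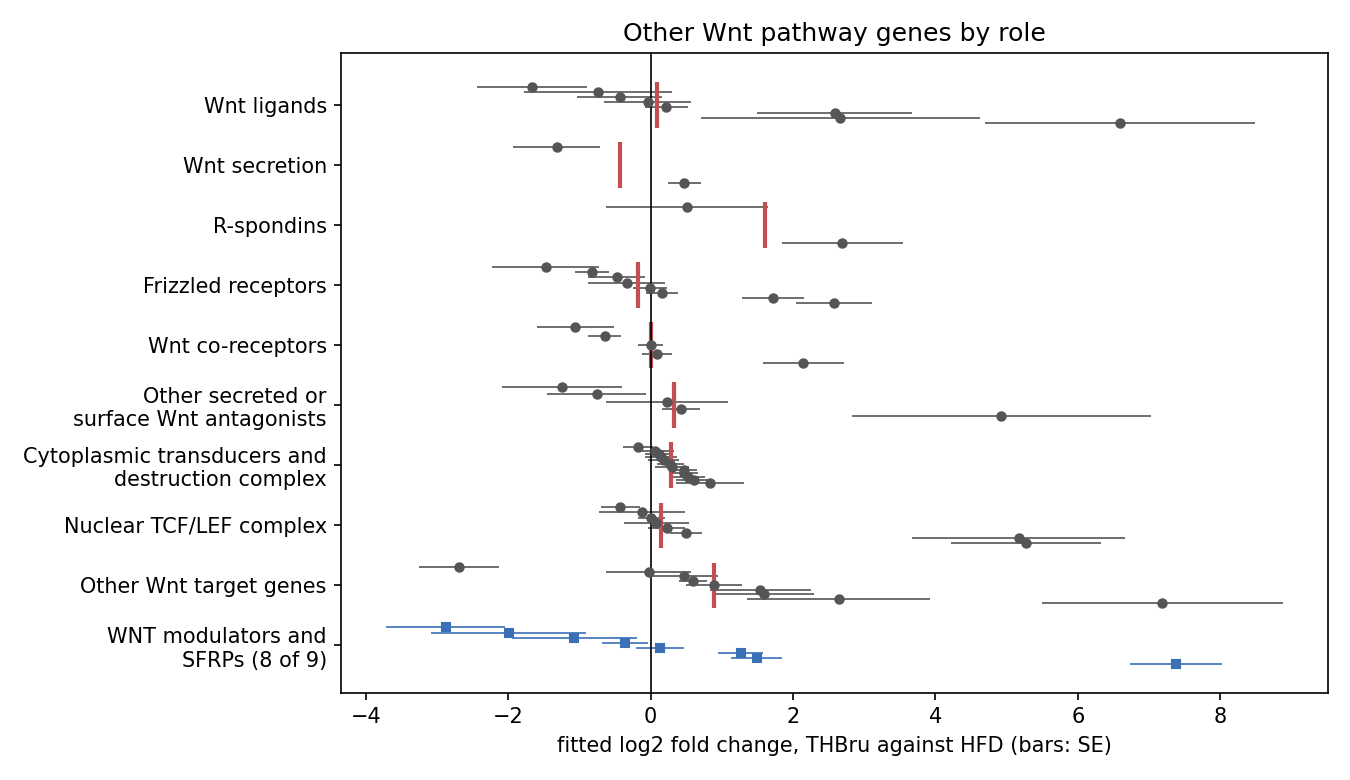
Fitted log2 fold change of THBru over HFD for the other tested Wnt pathway genes by list, and for 8 of the 9 genes described (blue squares); each point is a gene with its SE and red lines are list medians. Notum, with 0 counts in all HFD libraries, is left out of the points, and Lgr5 was not tested. The median over the cytoplasmic genes is 0.29 and that over frizzled receptors is -0.17.

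For each of the 8 tested members, the 3 genes most like it were found by Pearson's r of log2(CPM + 0.1) over the 6 libraries, with r of at least 0.961. These are the highest among all tested genes in 6 libraries that fall into separate groups, so they describe a shared pattern of levels only. For Rnf43 they were B4galnt2, Stard10 and Epcam. Epcam, which is in the general epithelium list, was at 0.312, 0.433 and 0.635 CPM in HFD, against 56.1, 64.3 and 240.3 CPM in THBru. For Sfrp5 they were Irf4, Cyp4v3 and Mest, of which Mest, an imprinted gene of adipocyte expansion, was at 927, 874 and 1070 CPM in HFD, against 21.6, 196 and 16.2 CPM in THBru. Epcam, like Rnf43, was highest in THBru 3, and Mest, like Sfrp5, was highest in THBru 2 among the THBru libraries. For Znrf3 the genes were Zbed3, Mir7006 and Pacsin1, for Axin2 Zfp747, Cmtm4 and Nexmif, and for Lgr4 Spen, Cdkn2aip and Epn2. For Sfrp4 they were Dcstamp, Pilra and Nlrp1b, for Sfrp2 Oip5, Slfn9 and Sh3gl1, and for Sfrp1 Lpp, Cabin1 and Ighj2.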

How the data were processed

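Poly(A) RNA of 6 mouse white adipose samples was made into dUTP-marked paired-read libraries and sequenced on an Illumina NovaSeq, per the labels' protocols. The deposited table holds raw whole-number counts per gene and FPKM values calculated by the authors, per the file headers. The submitters' processing notes list edgeR, DESeq2, StringTie 2.1.6, HISAT2 2.2.1 and Cutadapt 1.9 with no role for any. Which program counted the reads, with which strand setting and on which build, is not given in the sources used here. GENCODE M21 (GRCm38) holds 99.7% of the gene IDs, with identical coordinates for 91.0% of them.

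Rows of 1 symbol were summed (32819 to 32759). Genes whose mean FPKM reached 0.5 (16140 genes) were tested, THBru against HFD, with edgeR 4.0.16 (R 4.3.3; robust quasi-likelihood test, TMM factors, total counts as library sizes, no covariates, two-sided, Benjamini-Hochberg at 0.05). That minimum over both groups can admit a gene through the group where it is high, as for Rnf43. Among the pathway genes named, it did so for Notum, Wnt7b, Wnt4, Rspo3, Fzd3, Wif1, Lef1 and Tnfrsf19, all under 0.5 in HFD. DESeq2 1.42.0 was the alternative, an adjusted p it gave as NA was not counted as a call, and the steps were tested on simulated counts. TMM factors were 0.632 in THBru 1, the library rich in seminal vesicle transcripts, and 1.02 to 1.19 in the others. Wnt1, Wnt3, Wnt8a and Rspo4 were not matched in the table.

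The members and all lists were chosen with earlier results of these data known. Named genes were the 9 members, genes of each pathway list past the threshold, the 2 with the smallest p and the 1 with the highest mean FPKM, the 2 most abundant genes of each marker list and the 3 genes most like each member. Rspo2, Fzd1 and the pathway genes listed as called without THBru 2 were named after their values were seen. Prickle1, which DESeq2 also called higher, is not described. Every pair of libraries differed by more than sampling noise (lowest chi-square per gene 185).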

Additional observations from a re-analysis of the deposited data

How the results depend on the processing

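With 19 genes called higher and 0 lower by edgeR, the count depended on the setting. It was 53 and 0 with total counts alone, 7888 and 25 with adipocyte gene scaling, 30 higher at a mean FPKM of at least 1, 351 and 6 for THBru 2 alone, and 1670 and 1103 by DESeq2. Leaving out 1 library gave 0 to 817 higher and 0 to 735 lower: 0 higher without any 1 of HFD 1, HFD 2 or HFD 3, 79 without THBru 1 and 817 without THBru 2. For the other Wnt pathway genes, 0 higher and 0 lower became 42 higher with adipocyte gene scaling, 1 for THBru 2 alone, 9 higher and 3 lower by DESeq2, and 0 to 5 higher when 1 library was left out. The THBru 2 comparison has 1 library in an arm, assumed to vary like the HFD libraries. The cause was not tested. Of 138 alternative fold changes of the members, 126 moved by less than the replicate spread, and 12 by more. The sign changed for Lgr4 (1.92) and Sfrp2 (0.80) with adipocyte gene scaling, for Lgr4 without HFD 2 (0.04) and for Sfrp1 without HFD 3 (-0.14).

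The replicate block gave 0 genes higher. No pairing by number was seen, as deviations of same-numbered libraries correlated at 0.0298, -0.00775 and -0.0560. Because each THBru library carried another organ's transcripts, this check cannot exclude a pairing.

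With 3 libraries a group, the spread between them limits the precision, and low genes such as Lgr5, with 0 to 184 counts, carry counting error as well.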
